A study of Homo sapiens with 16 samples.

Results

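The question here was whether the difference between siFoxA1-titled and parental-titled arrays changed between replicate numbers 1 and 2 of the dexamethasone (DEX) set, the numbers between which FOXA1 itself differed. All 8 arrays of that set were used, of 16 in the series. They were taken as 4 groups of 2 by cell title (parental or siFoxA1) and replicate number, with the Vehicle-titled and the DEX-titled array of each group pooled. Each gene received a title difference at replicate 1 and at replicate 2, siFoxA1 minus parental titles on the log2 scale, and the contrast is the second minus the first. This pooling was chosen from measured values of the same arrays: each array lay nearest to the one with the same number and cell title, FOXA1 was lower at replicate 2, and FKBP5 followed the cell title. Values of the contrast are therefore a description, and the calls made on them only sort genes.

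All groups were LNCaP-1F5 cells. They are human prostate cancer cells descended from LNCaP, given a rat glucocorticoid receptor because LNCaP has little of its own. By their titles, the arrays called parental hold cells with no siRNA named, and those called siFoxA1 hold cells given a pool of siRNAs against FOXA1 mRNA. Every culture had spent 3 days in charcoal-stripped medium, and RNA was taken after 24 hours with vehicle or with 100 nM DEX, a synthetic glucocorticoid. The series describes its repeats as biological duplicates, and no control siRNA is named for the parental cells. As 1 line with an added receptor, the cells limit what the arrays can stand for.

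FOXA1 is a forkhead pioneer factor that opens chromatin for steroid receptors in prostate epithelium. The glucocorticoid receptor, once bound by hormone, enters the nucleus and binds response elements that resemble those of the androgen receptor, so that both receptors share targets such as FKBP5 and SGK1. In prostate cells loss of FOXA1 is known to move the binding of both receptors, with sites that are lost, kept or gained.

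FOXA1 was lower on siFoxA1-titled than on parental-titled arrays at both numbers, and lower at replicate 2 than at replicate 1 within both titles. Its log2 level was 13.36 on both parental-titled arrays of replicate 1, and 12.65 and 12.66 on the siFoxA1-titled ones. At replicate 2 the level was 12.09 and 12.17 on the parental-titled and 10.84 on both siFoxA1-titled arrays. None of the 4 groups overlapped, and the parental-titled arrays of replicate 2 lay below the siFoxA1-titled arrays of replicate 1. The title difference was -0.71 ± 0.09 at replicate 1 (± SE of the limma fit, n = 2 arrays per group) and -1.29 ± 0.09 at replicate 2, a contrast of -0.58 ± 0.12. That put FOXA1 itself among the enlarged genes, a place it lost when the variance was fitted without a trend on intensity (adjusted p = 0.104, against a range of 0.00566 to 0.104 over 16 alternatives).

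FKBP5, an immunophilin that both receptors induce, followed the cell title alone. It was 9.34 and 9.23 on the parental-titled and 13.89 and 13.80 on the siFoxA1-titled arrays of replicate 1. At replicate 2 the levels were 9.20 and 9.39 against 13.87 and 13.80. The contrast was -0.01 ± 0.14, with the siFoxA1-titled arrays 23.5-fold higher at replicate 1 and 23.3-fold higher at replicate 2. A gene that glucocorticoids induce thus separated the arrays by cell title and not by hormone title, and which cells and which hormone each array holds cannot be told from the titles alone. Directions below are directions between titles, and no array was moved to another group.

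**Figure D1:**
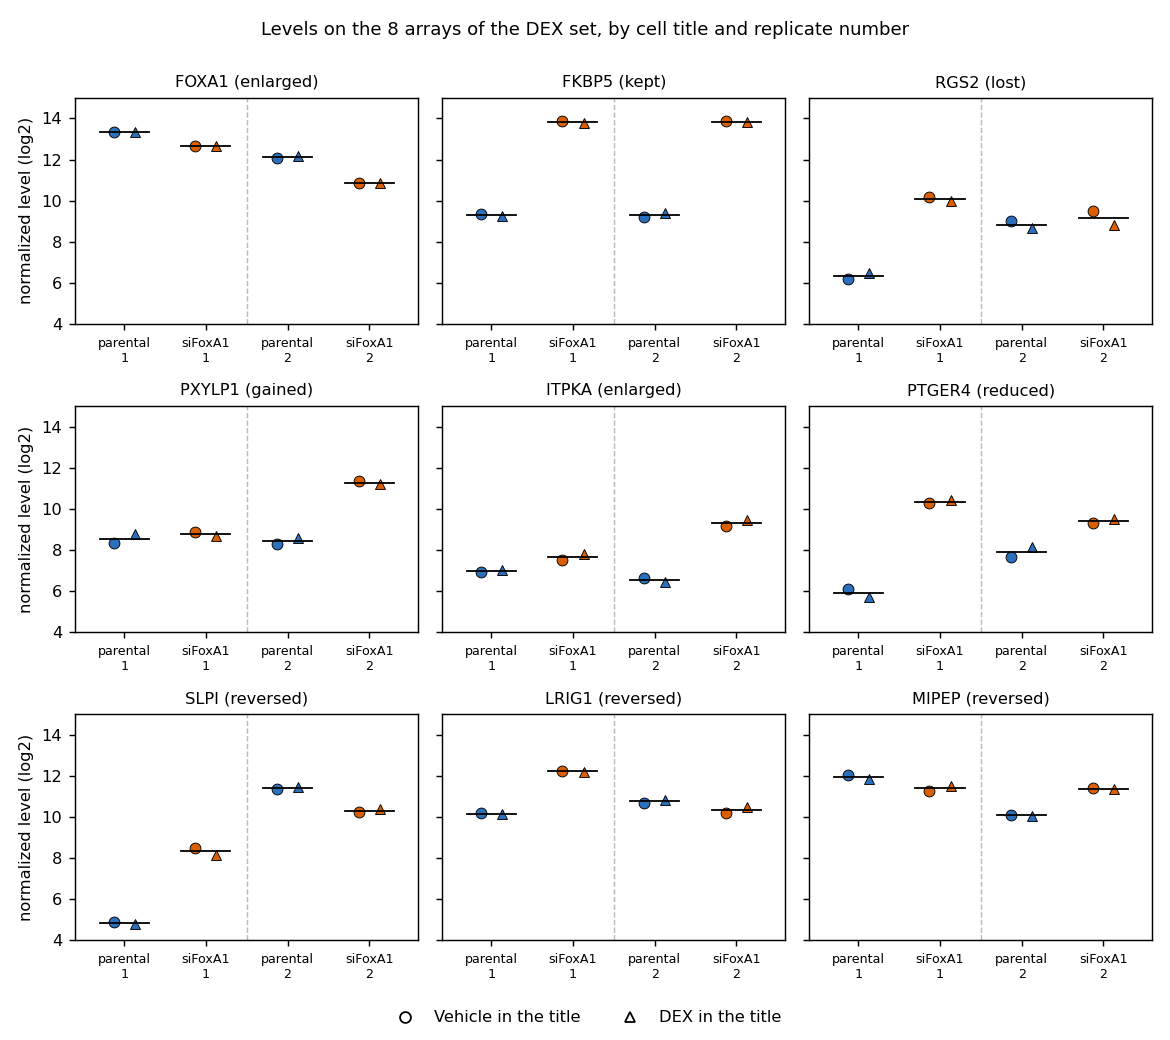
Normalized log2 level (y axis, the same range in every panel) of 9 genes on the 8 arrays, by cell title and replicate number (x axis). Circles are Vehicle-titled and triangles DEX-titled arrays, bars are means of 2, and the class of each gene is in brackets. FOXA1 steps down over the 4 groups from 13.36 to 10.84, FKBP5 differs by cell title alone, and SLPI changes the sign of its title difference.

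Between 15933 and 17168 of 47231 probes were detected per array (33.7% to 36.3%), the mean scanner signal was 597.4 to 683.1, and 10986 genes were tested. The nearest array of all 8 arrays shared its number and cell title and differed in hormone title (Pearson r across genes 0.9877 to 0.9917). Arrays of the same labelled group but other number correlated at 0.9573 to 0.9659. With 2 arrays per group, the number of arrays limits the precision of every value, and in bulk RNA fewer cells of a type and less RNA per cell cannot be told apart.

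The difference by hormone title was small within the 4 groups, which restates the nearness of the arrays by which the groups were chosen and is given as a description. DEX minus Vehicle titles within the 4 groups gave 0 called genes of 10986 (0%) in limma at an adjusted p under 0.05. At an unadjusted p under 0.05 there were 429 genes, where 549 would pass at that rate, and the smallest adjusted p was 0.998. The largest difference by hormone title was 0.83 and the median 0.08 in absolute size.

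The title difference was called for 3482 genes at replicate 1 (31.7% of all tested; 1605 higher and 1877 lower on siFoxA1 titles) and for 3853 at replicate 2 (35.1%; 1725 higher and 2128 lower). The contrast was called for 589 genes (5.36%), 267 with a higher (2.43%) and 322 with a lower value (2.93%) at replicate 2. Over both numbers together, with the number as a block, 4384 genes were called (39.9%). Over all genes the median was -0.06 for the title difference at replicate 1, -0.05 at replicate 2 and 0.00 for the contrast. The count of 589 fell to 354 without the DEX parental array of replicate 1, to 356 without either the Vehicle siFoxA1 array of replicate 1 or that of replicate 2, and to 338 without the DEX siFoxA1 array of replicate 1. Just inside the threshold lay NCKIPSD (0.60 ± 0.17), FGFRL1 (0.68 ± 0.20) and RAMAC (0.66 ± 0.19). Just outside it lay EMC1 (-0.70 ± 0.20), YWHAE (0.56 ± 0.16) and PTMS (0.66 ± 0.19).

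Genes were then sorted by these 3 calls. Kept genes had both title differences called in 1 direction and the contrast not called (2045 genes, 18.6%; 898 higher, 8.17%, and 1147 lower, 10.4%), which does not show that their differences were equal. Enlarged genes (135, 1.23%) and reduced genes (75, 0.683%) had both called in 1 direction, with a larger or a smaller difference at replicate 2. Lost genes (125, 1.14%) were called at replicate 1 alone and gained genes (204, 1.86%) at replicate 2 alone, each with the contrast called. Reversed genes (47, 0.428%) were called in opposite directions. A further 1055 genes were called at replicate 1 alone and 1347 at replicate 2 alone without a called contrast, 5950 had no call, and 3 had only the contrast called. Those 3, named after their values were seen, were SESN2, SPDYE8 and TJP1. Since the groups were chosen from these arrays, nothing is read from the size of these classes.

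**Figure D2:**
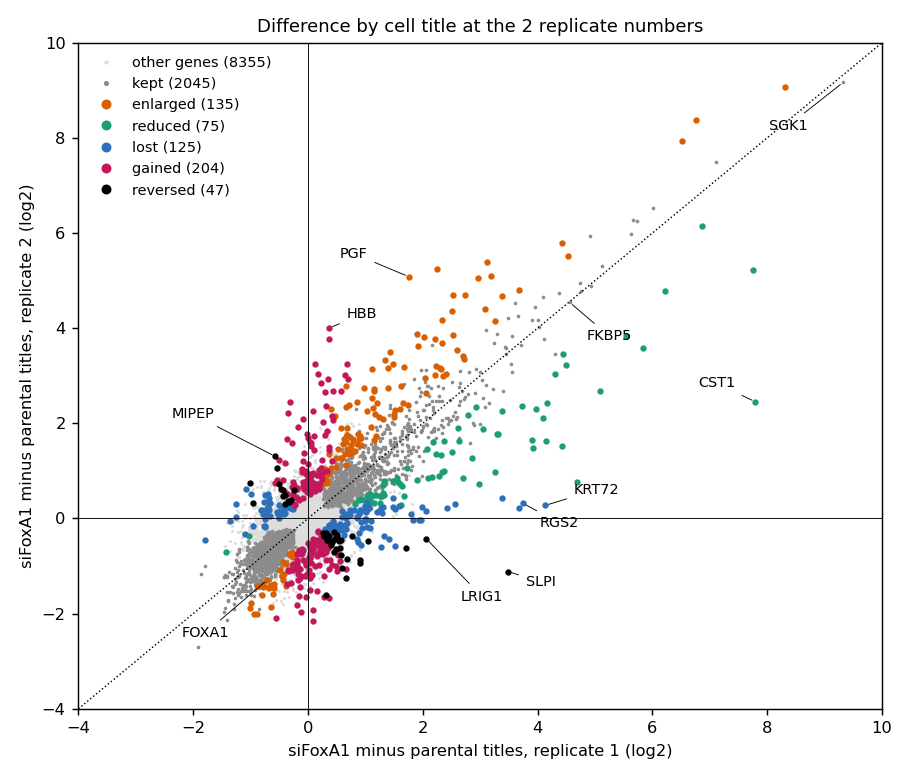
Title difference (siFoxA1 minus parental titles, log2) at replicate 1 (x axis) and at replicate 2 (y axis) for all 10986 genes, coloured by class, with equal differences on the dotted line. Kept genes lie along the line up to SGK1, lost and gained genes lie near 1 of the 2 axes, and SLPI, LRIG1 and MIPEP lie in the quadrants of opposite sign.

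Among the 898 kept genes that were higher on siFoxA1 titles, the largest difference belonged to SGK1, a serine/threonine kinase induced by corticosteroids that regulates ion channels. SGK1 was not detected on the 4 parental-titled arrays and stood at 14.27 and 14.33 on the siFoxA1-titled arrays of replicate 1 and 14.58 and 14.59 on those of replicate 2. It was thus at least 411-fold and at least 458-fold higher, bounds set by the detection limit of the parental-titled arrays. TUBA3C, an alpha-tubulin with near-identical relatives that can share its probe, was not detected on parental titles either. Its levels on siFoxA1 titles were 11.74 and 11.62 at replicate 1 and 12.14 and 12.05 at replicate 2, at least 66.6-fold and 81.6-fold higher. TIPARP, a mono-ADP-ribosyltransferase, was detected everywhere. It was 8.53 and 8.60 against 14.35 and 14.23 at replicate 1, and 7.97 and 8.33 against 14.40 on both siFoxA1-titled arrays at replicate 2. Its contrast of 0.53 ± 0.16 was not called. TLCD4 differed by 6.02 ± 0.25 and 6.54 ± 0.25, from parental-titled groups in which 1 of 2 arrays detected it.

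The 1147 kept genes that were lower on siFoxA1 titles had smaller differences, from -1.91 to -0.23 at replicate 1, while those of the higher genes reached 9.32. SDCBP2, a PDZ-domain adaptor also called syntenin-2, was 7.42 and 7.60 on parental and 5.58 and 5.62 on siFoxA1 titles at replicate 1. The replicate 2 levels were 8.32 and 8.50 against 6.09 and 5.32, and of its 2 other probes 1 had the same sign of contrast. At each number 1 of 2 siFoxA1-titled arrays detected SDCBP2, so its levels there lay near the detection limit. HOXA11-AS, an antisense RNA of a homeobox gene, combined a kept title difference (-1.47 ± 0.17 and -1.97 ± 0.17) with a shift between the numbers. It was higher at replicate 2 by 3.02 on parental and by 2.52 on siFoxA1 titles. LINC01315, a long non-coding RNA, differed by -1.44 ± 0.21 and -1.89 ± 0.21, and HGC6.3 by -1.41 ± 0.23 and -1.55 ± 0.23. A kept title difference did not mean a level that stayed the same between the numbers.

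Promoter sequences were set beside the classes because both factors are known by the letters they bind. RefSeq promoters (GRCh38.p14) were matched by symbol for 8911 of the 10986 genes tested, and the 250 bases before each start were searched on both strands. The full glucocorticoid response element, as the exact letters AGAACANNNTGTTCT, was found in 0 of these 8911 and in 1 of all 27305 promoters. Variants of the letters and bases further away were not searched, so the 0 does not show that sites are absent. The single arm AGAACA, which the full element contains, was in 7.4% of the 8911. It was in 6.63% of the 769 kept higher and in 7.25% of the 69 lost higher promoters. Over classes and directions the arm ranged from 0.0% of the 27 reversed lower to 13.8% (4) of the 29 lost lower promoters. The forkhead letters TGTTTAC were in 1.92% of all and 1.95% of kept higher promoters. They ranged from 0.0% of the 74 gained higher to 5.0% (4) of the 80 gained lower promoters. Over all 27305 promoters of the table the shares were 12.4% for the arm and 2.98% for the forkhead letters. Among the named genes 36 of 48 had a promoter in the table. The stretches of a kept and a lost gene with a match are shown with the match in capitals, SDCBP2 at chr20:1329215-1329321 on the minus strand with the forkhead letters and ARG1 at chr6:131572976-131573041 on the plus strand with the arm. A match is no evidence of binding.
SDCBP2: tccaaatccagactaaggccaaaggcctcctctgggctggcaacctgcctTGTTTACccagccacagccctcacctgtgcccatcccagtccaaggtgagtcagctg
ARG1: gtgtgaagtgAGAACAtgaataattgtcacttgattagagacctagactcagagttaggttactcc

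In the lost class, 82 genes were higher and 43 lower on siFoxA1 titles at replicate 1. RGS2, a GTPase-activating protein that dampens G protein signalling and a known glucocorticoid target, showed the pattern with all arrays detected. RGS2 was 6.21 and 6.46 on parental and 10.16 and 10.00 on siFoxA1 titles at replicate 1. The replicate 2 levels were 8.99 and 8.67 against 9.51 and 8.79, so that the groups overlapped there. The title difference was 3.74 ± 0.19 at replicate 1 and 0.32 ± 0.19 at replicate 2, a contrast of -3.42 ± 0.28. Most of it came from the parental-titled arrays, which were 2.50 higher at replicate 2, while the siFoxA1-titled arrays were lower by 0.93.

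Other lost genes were near or below detection at replicate 2. KRT72, an epithelial keratin, was detected only on the siFoxA1-titled arrays of replicate 1, at 8.60 and 8.70, at least 8.16-fold above the parental-titled ones. ARG1, the liver form of arginase, was likewise detected only there, at 8.46 and 8.01, at least 6.13-fold higher. APOD, a lipid-binding apolipoprotein, was 7.08 and 6.74 on parental and 10.27 and 10.30 on siFoxA1 titles at replicate 1. By replicate 2 APOD was not detected on parental titles and stood at 5.28 and 6.33 on siFoxA1 titles, where 1 of 2 arrays detected it.

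Lost genes that had been lower on siFoxA1 titles had contrasts of 0.47 to 1.70. GASK1B, a Golgi-associated kinase-like protein, was 10.30 and 10.14 against 9.01 and 8.72 at replicate 1 and 6.75 and 6.87 against 6.65 and 6.87 at replicate 2, where the groups overlapped. Its contrast was 1.31 ± 0.24 (0.79 by another probe), while the level fell by 3.41 on parental and by 2.10 on siFoxA1 titles between the numbers. RASSF2, a Ras-association protein, had a contrast of 1.70 ± 0.38, EIF4EBP1, the translation repressor 4E-BP1, of 1.51 ± 0.36, and the small nucleolar RNA SNORA27 of 1.35 ± 0.30. The contrast of these 3 genes lost its call when 1 array was left out, for RASSF2 with 1 of the 8 arrays, for SNORA27 with 2 and for EIF4EBP1 with 5 (highest adjusted p over all alternatives in limma 0.0851, 0.0692 and 0.141).

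Gained genes were 99 higher and 105 lower on siFoxA1 titles at replicate 2. PXYLP1, a phosphatase that acts on the xylose of proteoglycan linkers, was detected on all arrays. It was 8.32 and 8.75 on parental and 8.85 and 8.66 on siFoxA1 titles at replicate 1, where the groups overlapped. At replicate 2 it was 8.29 and 8.57 against 11.34 and 11.22. The title difference went from 0.22 ± 0.15 to 2.85 ± 0.15, and another probe of the gene gave a contrast of 2.51, against 2.63. GRPR, the receptor of gastrin-releasing peptide, was not detected on parental titles, was detected on 1 of 2 siFoxA1-titled arrays of replicate 1 and reached 8.70 and 8.79 on the siFoxA1-titled arrays of replicate 2, at least 8.01-fold higher. PLXNA2, a semaphorin receptor, was detected on those 2 arrays alone, at 8.58 and 8.72, at least 7.49-fold higher. Another probe of PLXNA2 gave a contrast of 0.88, against 2.57 for the probe described.

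HBB, the beta chain of haemoglobin, was also detected on the siFoxA1-titled arrays of replicate 2 alone. HBB stood there at 8.84 and 8.77, at least 8.35-fold above the parental-titled arrays. HBB and PLXNA2 passed the detection filter through those 2 arrays, so a high level there follows from how they were chosen. Of the 11 blood and endothelial markers 10 were on the array, and 8 were detected on no array, PTPRC, CD14, HBA1 and PECAM1 among them. The other measured member was CD68, a lysosomal protein of macrophages that other cells also make, with title differences of 2.23 and 1.36.

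Of the 105 genes that were lower at replicate 2 alone, 90 were detected on all 8 arrays, but the 4 named here, which had the largest contrasts with arrays below detection at their limit, were not detected on either title at replicate 1. CX3CR1, the fractalkine receptor, was not detected at replicate 1. At replicate 2 it was 8.49 and 8.24 on parental and 6.37 and 6.43 on siFoxA1 titles, a title difference of -1.96 ± 0.28. LINGO1, a membrane protein of neurons, was also not detected at replicate 1 and then stood at 7.96 and 7.50 against 5.69 and 5.92. ODAM, a secreted protein of tooth-forming epithelium, was 8.14 and 8.07 against 5.99 and 6.04, and LUZP2, a leucine zipper protein, was 7.16 and 7.48 on parental titles and not detected on siFoxA1 titles, at least 3.12-fold lower. On parental titles these 4 genes were thus detected at replicate 2 alone. LUZP2 passed the detection filter through the 2 parental-titled arrays of replicate 2, and CX3CR1, LINGO1 and ODAM through arrays of replicate 2. Their absence at replicate 1 is read with that limit. The contrast lost its call without any 1 of 7 arrays for ODAM and of 6 arrays for LUZP2 (highest adjusted p over all alternatives in limma 0.0862 and 0.117).

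Enlarged genes were mostly higher on siFoxA1 titles, 107 against 28 lower. PGF, placental growth factor, which binds a vascular endothelial growth factor receptor, was not detected on parental titles. Its levels were 6.81 and 6.54 on the siFoxA1-titled arrays of replicate 1 and 10.00 and 9.77 on those of replicate 2. PGF was at least 2.07-fold and then at least 17.7-fold higher, with a change of 3.21 between the numbers on siFoxA1 titles. SBSPON, a secreted thrombospondin-domain protein, showed the same form with 6.88 and 7.11, then 10.03 and 9.80, at least 2.6-fold and at least 18.0-fold higher.

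ITPKA, an inositol trisphosphate kinase that also bundles actin, was detected on all arrays. It was 6.93 and 7.03 against 7.50 and 7.80 at replicate 1, and 6.61 and 6.41 against 9.14 and 9.44 at replicate 2. Its title difference grew from 0.67 ± 0.19 to 2.78 ± 0.19. SLCO2A1, the prostaglandin transporter, was not detected on the parental-titled arrays of replicate 1 and was at least 1.58-fold higher there, with a title difference of 2.73 ± 0.23 at replicate 2. It lost the call without any 1 of 3 arrays and in the authors' deposited intensities (0.98, adjusted p = 0.178 in limma).

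Of the enlarged genes that were lower on siFoxA1 titles, POLB, the DNA polymerase of base excision repair, had the largest contrast. It was 9.80 and 9.89 on parental and 9.12 and 9.29 on siFoxA1 titles at replicate 1, and 12.07 and 12.28 against 10.42 and 10.22 at replicate 2. POLB was thus higher at replicate 2 on both titles, by 2.33 on parental and 1.11 on siFoxA1 titles. HLX, a homeobox factor, had the same form, with title differences of -0.38 ± 0.14 and -1.42 ± 0.14 while both titles were higher at replicate 2, by 3.18 and 2.14. Its contrast was -1.04 ± 0.20, and -1.72 by another probe. COLEC12, a scavenger receptor, instead was lower at replicate 2 on both, by 0.92 on parental and 1.98 on siFoxA1 titles (contrast -1.06 ± 0.19, adjusted p = 0.0528 in limma with no variance trend). MMP16, a membrane-bound matrix metalloproteinase, was 8.87 and 8.92 against 8.06 and 7.95 at replicate 1, and 9.47 and 9.62 against 7.50 and 7.59 at replicate 2.

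The reduced class held 73 genes that were higher and 2 that were lower on siFoxA1 titles. CST1, cystatin SN, a secreted protease inhibitor, had the largest contrast of all 10986 genes. It was not detected on parental titles, so that its contrast of -5.34 ± 0.30 rests on levels below detection (also -5.34 with those arrays at their detection limit). On siFoxA1 titles it was 12.15 and 12.24 at replicate 1 and 6.82 and 7.13 at replicate 2, at least 95.2-fold and then at least 2.34-fold higher. KRT73, an epithelial keratin like KRT72, was 9.47 and 9.12 on the siFoxA1-titled arrays of replicate 1, at least 12.8-fold higher, and was not detected on any other array, so that no fold can be given at replicate 2. SLC10A1, a bile acid transporter, was 8.85 and 8.64 and then 5.74 and 6.71 on siFoxA1 titles, at least 8.73-fold and at least 1.4-fold higher.

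PTGER4, a prostaglandin E2 receptor, was detected on all arrays. It was 6.12 and 5.72 on parental and 10.26 and 10.44 on siFoxA1 titles at replicate 1, and 7.63 and 8.16 against 9.32 and 9.52 at replicate 2. The groups did not overlap at either number, as for 67.4% of all genes at replicate 1 and 63.6% at replicate 2. The title difference of PTGER4 went from 4.43 ± 0.19 to 1.53 ± 0.19. Its parental-titled arrays were 1.98 higher and its siFoxA1-titled arrays 0.93 lower at replicate 2. The 2 reduced genes that were lower on siFoxA1 titles were CARM1, an arginine methyltransferase and coactivator of steroid receptors (-1.43 ± 0.12, then -0.71 ± 0.12), and the zinc finger protein MYNN (-1.02 ± 0.12, then -0.37 ± 0.12). Their contrasts lost the call without any 1 of 3 arrays for CARM1 and of 6 for MYNN (highest adjusted p over all alternatives in limma 0.118 and 0.148).

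Title differences of opposite sign were found for 47 genes. SLPI, a secreted leukocyte protease inhibitor of epithelia, was not detected on the parental-titled arrays of replicate 1 and was 8.47 and 8.16 on the siFoxA1-titled ones, at least 6.49-fold higher. At replicate 2 it was 11.38 and 11.47 on parental and 10.24 and 10.37 on siFoxA1 titles, a title difference of -1.12 ± 0.15. Its contrast was -4.61 as measured and -3.81 with the arrays below detection at their limit. SLPI was therefore higher at replicate 2 on both titles, and the siFoxA1-titled arrays of both numbers lay between the parental-titled ones. LRIG1, a negative regulator of receptor tyrosine kinases, was 10.17 and 10.13 against 12.24 and 12.18 at replicate 1. It was 10.69 and 10.83 against 10.18 and 10.49 at replicate 2, with a contrast of -2.49 ± 0.16.

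RGCC, a regulator of the cell cycle, was 6.89 and 7.02 against 8.73 and 8.60, then 9.30 and 9.36 against 8.67 and 8.77. Its siFoxA1-titled arrays differed by 0.05 between the numbers, and the contrast of -2.32 ± 0.21 came from the parental-titled arrays. ENC1, an actin-binding kelch protein, was higher at replicate 2 by 4.25 on parental and 2.33 on siFoxA1 titles, so that its title difference went from 0.32 ± 0.12 to -1.60 ± 0.12.

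Of the 14 reversed genes that were higher on siFoxA1 titles at replicate 2, MIPEP, a mitochondrial peptidase, had the largest contrast. It was 12.05 and 11.85 against 11.26 and 11.50 at replicate 1, and 10.10 and 10.05 against 11.41 and 11.33 at replicate 2. Its siFoxA1-titled arrays differed by -0.01 between the numbers while the parental-titled ones fell by 1.88. ACTRT3, an actin-related protein, was 7.99 and 8.04 against 7.05 and 6.98, then 6.04 and 5.96 against 6.92 and 6.57. CCNF, the F-box protein cyclin F, went from -0.54 ± 0.14 to 1.07 ± 0.14, and ID2, an inhibitor of basic helix-loop-helix factors, from -0.95 ± 0.11 to 0.32 ± 0.11, a contrast of 1.28 (0.76 by another probe). For these 4 genes, as for RGCC, the larger part of the contrast lay on parental titles.

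A contrast can come from either cell title. The change from replicate 1 to 2 was larger in absolute size on siFoxA1 titles for 67 of the 99 gained higher genes and for 75 of the 107 enlarged higher genes. It was larger on parental titles for 76 of the 105 gained lower, 29 of the 43 lost lower, 41 of the 73 reduced higher and 31 of the 47 reversed genes. Lost higher genes were split, 40 and 42. Among gained lower genes the median change was 0.82 on parental and -0.05 on siFoxA1 titles, and among gained higher genes -0.29 and 0.56. Levels below detection entered these counts as measured.

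**Figure D3:**
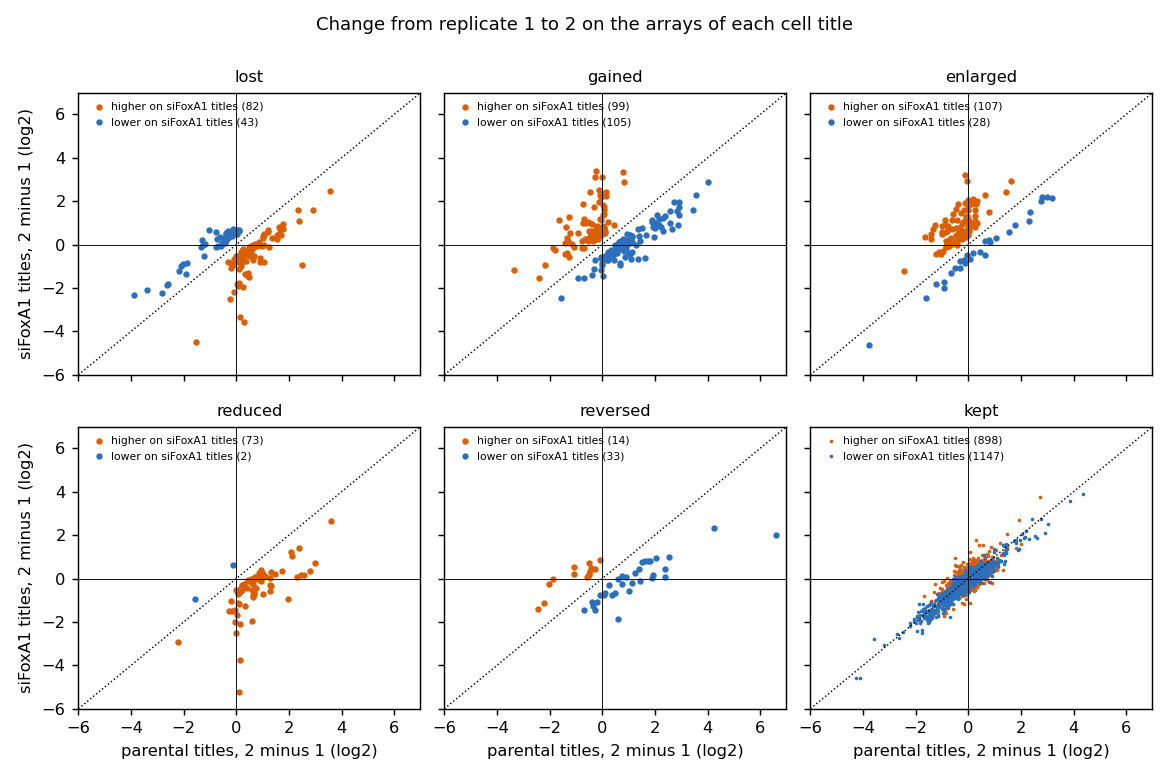
Change from replicate 1 to replicate 2 (log2) on parental titles (x axis) and on siFoxA1 titles (y axis) for the genes of 6 classes, coloured by the direction of their title difference. The vertical distance to the dotted line is the contrast. Gained higher genes spread upwards at parental changes near 0, gained lower genes to the right, and kept genes along the line, from -4.26 to 4.36 on parental titles.

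Of the genes of steroid signalling, the 3 probes of NR3C1, the human glucocorticoid receptor, were detected on 0 of 8 arrays, and rat transcripts were not analysed here. Of 24 listed steroid receptors and partner factors 8 were measured, with FOXA1 enlarged, 2 kept higher and 2 kept lower (1.23%, 8.17% and 10.4% over all genes). GRHL2, a grainyhead factor of epithelia, was kept higher, at 8.45 and 8.51 against 10.03 and 9.75 and then 8.96 and 9.18 against 10.99 and 10.92. The others, named after their values were seen, were the coactivator NCOA1 (0.72, then 0.65), the homeobox factor HOXB13 (-0.93, then -0.62) and GATA2, a zinc finger partner of the androgen receptor (-1.08, then -1.34). NR3C2, the mineralocorticoid receptor, had title differences of -0.10 and -0.57, neither of them called. Receptor chaperones had 0 called contrasts of 14 measured genes in limma (5.36% over all genes, so that 0 is near that share). Their median title difference was 0.05 at replicate 1 and 0.26 at replicate 2.

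Of 35 listed glucocorticoid-induced genes 31 were measured, and most were kept: 17 higher and 2 lower (8.17% and 10.4% over all genes). The 2, named after their values were seen, were the metallothioneins MT2A and MT1X. The median title difference was 1.75 at replicate 1 and 1.44 at replicate 2, beside -0.06 and -0.05 over all genes. Both medians lie in the direction that FKBP5, a member used in choosing the groups, takes. The contrast was called for 8 of the 31 (5.36% of all genes were called), 2 higher and 6 lower, with a median of -0.05. Largest was that of RGS2. CDKN1C, the cell cycle inhibitor p57, was reduced: 7.18 and 6.90 against 10.29 and 10.43 at replicate 1, and 8.30 and 8.31 against 10.07 and 10.08 at replicate 2. TSC22D3, the glucocorticoid-induced leucine zipper GILZ, was enlarged, from 2.04 to 2.96, with levels of 10.60 and 10.75 against 12.71 on both siFoxA1-titled arrays and then 10.01 and 9.97 against 12.95 and 12.96. The 2 other probes of TSC22D3 had the same sign.

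Of 28 measured androgen-induced genes, 9 had a called contrast, 0 higher and 9 lower (2.43% and 2.93% over all genes), while 9 were kept higher (8.17% over all genes). Their median title difference was 0.81 at replicate 1 and 0.24 at replicate 2, and the median contrast was -0.40, beside 0.00 over all genes. ABCC4, a transporter of cyclic nucleotides and drugs, was reversed: 11.25 and 11.20 against 11.99 and 11.63, then 12.16 and 12.37 against 11.27 and 11.18. AZGP1, a secreted zinc-binding glycoprotein, was lost. It was detected only on the siFoxA1-titled arrays of replicate 1, at 7.46 and 7.20, at least 3.27-fold higher. F5, coagulation factor V, was detected on the same 2 arrays alone, at least 1.87-fold higher, and its contrast was not called. AZGP1 and F5 passed the detection filter through those 2 arrays, so a high level there follows from how they were chosen. The list shares FKBP5 and SGK1 with the glucocorticoid-induced list. Of 11 measured androgen-repressed genes 5 were kept lower and 1, UGT2B17, was enlarged (10.4% and 1.23% over all genes). UGT2B17, which inactivates androgens by glucuronidation, was 11.24 on both parental titles against 10.13 and 10.32 at replicate 1, and 7.50 and 7.45 against 5.63 and 5.55 at replicate 2, where 1 of 2 siFoxA1-titled arrays detected it. Its relatives are near-identical in sequence, and of its 2 other probes 1 had the same sign of contrast.

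**Figure D4:**
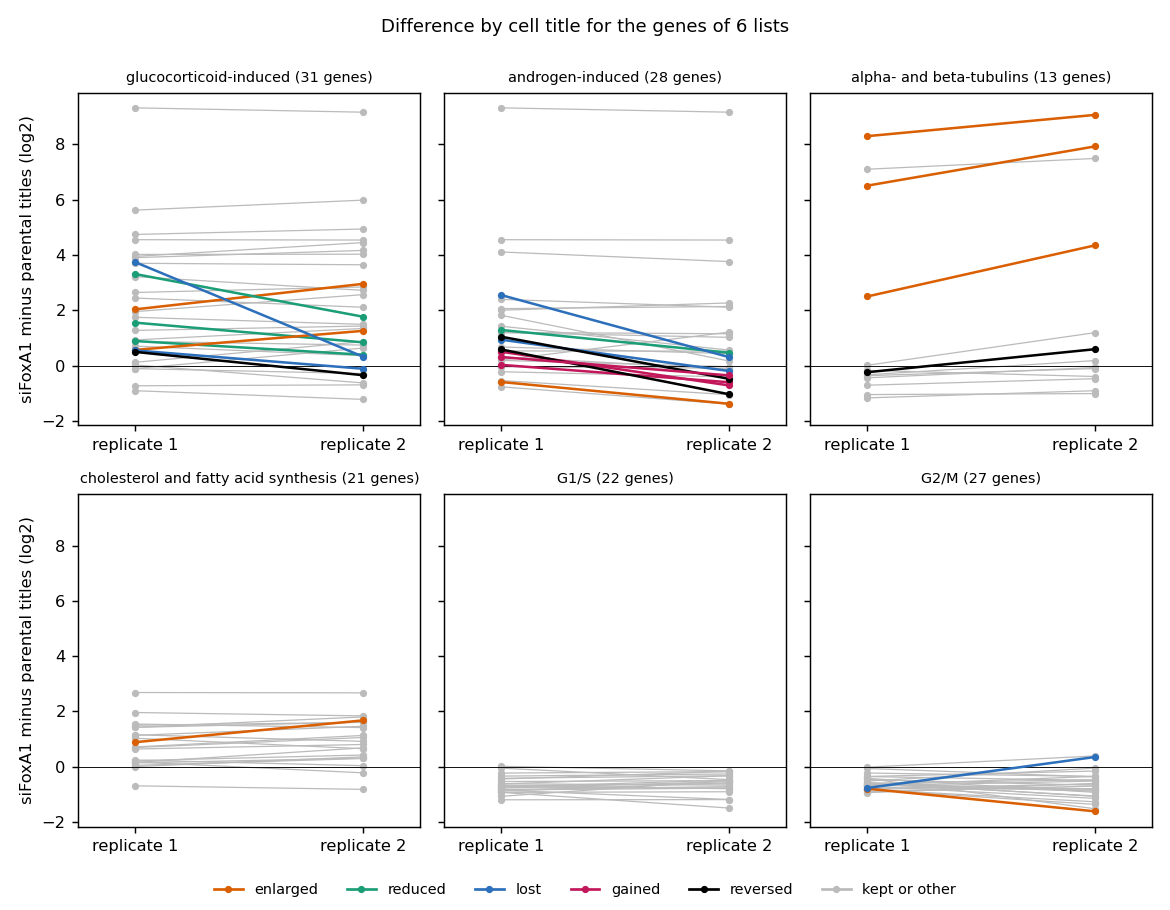
Title difference (y axis, siFoxA1 minus parental titles, log2) at replicate 1 and replicate 2 for each measured gene of 6 lists, with 1 line per gene coloured by class. The 9 coloured lines of the androgen-induced list all slope down, the 4 of the tubulins all slope up, and no line of the G1/S genes is coloured.

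The alpha- and beta-tubulins had 4 called contrasts of 13 measured genes, all 4 higher (5.36% and 2.43% over all genes). TUBB2A was 8.50 and 8.38 against 10.96 and 10.93 at replicate 1, and 7.63 and 7.25 against 11.98 and 11.61 at replicate 2, so that its title difference grew from 2.50 to 4.36. TUBA3D was 7.27 and 7.73 against 14.18 and 13.84, then 6.44 and 6.85 against 14.53 and 14.62. The 4th and 5th largest absolute contrasts, named after their values were seen because they complete the count, were those of TUBA1C (reversed, 0.83 ± 0.12) and TUBA3E (enlarged, 0.77 ± 0.19). TUBA3E was not detected on parental titles, and its contrast was 0.38 with those arrays at their detection limit. TUBA3C, TUBA3D and TUBA3E are near-identical copies, and their probes may not measure separate transcripts. TUBB6 was not detected on the parental-titled arrays of replicate 2 and was at least 1.8-fold higher there, and its contrast was not called.

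Of 21 measured genes of sterol and fatty acid synthesis, 12 were kept higher and 1 was kept lower (8.17% and 10.4% over all genes). The median title difference was 0.72 at replicate 1 and 0.92 at replicate 2. Only SC5D, a desaturase of late cholesterol synthesis, had a called contrast, and it was enlarged, from 0.89 to 1.68. CYP51A1, the lanosterol demethylase, was kept at 0.72 and 1.13, and MVK, mevalonate kinase, was called at replicate 2 alone (0.16, then 0.68). Of 21 genes of the endoplasmic reticulum chaperones and the unfolded protein response 10 were kept higher (8.17% over all genes). XBP1, the factor spliced in that response, was lost: 12.10 and 11.96 against 12.49 and 12.53 at replicate 1, and 12.28 and 12.38 against 12.07 and 12.17 at replicate 2. HSPA5, the chaperone BiP, was called at replicate 1 alone (0.89, then 0.22), and its co-chaperone DNAJB9 was kept (1.82, then 1.10).

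Of cell cycle genes, 15 of 22 measured G1/S genes and 14 of 27 G2/M genes were kept lower, with 0 kept higher in either list (10.4% and 8.17% over all genes). Medians of the title difference were -0.71 and -0.56 for G1/S and -0.65 and -0.70 for G2/M. Both lists were also lower at replicate 2 than at replicate 1 on parental titles, by medians of -0.97 and -1.47. UHRF1, a factor that maintains DNA methylation at replication, was 9.77 and 9.62 against 8.68 and 8.86, then 8.57 and 8.53 against 7.35 and 6.76. UBE2C, a ubiquitin-conjugating enzyme of mitotic exit, was enlarged (-0.79, then -1.61), while KIF20A, a kinesin of cytokinesis, was lost (-0.77, then 0.35). BUB1, a spindle checkpoint kinase, was called at replicate 2 alone and not detected on the siFoxA1-titled arrays there, at least 1.58-fold lower.

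Among p53 targets and CDK inhibitors 5 of 14 contrasts were called (5.36% over all genes), including SESN1, a stress-induced sestrin that was enlarged (0.68, then 1.76), and SESN2, with a called contrast alone (-0.76, then 0.79). SPRY2, an inhibitor of receptor tyrosine kinase signalling, was lost: 6.60 and 6.69 against 7.95 and 8.38, then 6.53 and 6.55 against 6.01 and 5.92. Its contrast was the 1 called among 12 measured dual-specificity phosphatase and Sprouty genes. PFKFB3, which makes the activator of phosphofructokinase, was reversed (0.56, then -0.62), 1 called contrast among 19 glycolytic genes, a share near the 5.36% over all genes. SLC30A1, the zinc exporter of the plasma membrane, was reduced (3.39, then 2.26), and SLC30A7, a zinc transporter of the Golgi, was lost (contrast -0.84 ± 0.18). They were the 2 called contrasts among 17 measured metallothionein and zinc transport genes. SAT1, which acetylates polyamines for breakdown, was reduced (1.04, then 0.37), the 1 called contrast among 13 genes of polyamine metabolism (5.36% over all genes). KLF4, a Krüppel-like factor, was lost (1.08, then -0.20), among 3 called contrasts of 22 measured C/EBP, KLF and circadian factors. The largest contrast of that list, of NR1D2, was not called (-1.32 ± 0.51). IGF2R, the receptor that clears IGF2, was enlarged (0.37, then 0.96), the 1 called contrast among 6 measured genes of the insulin-like growth factor axis. The largest there, of IRS1, was not called (-1.07 ± 0.46). Of 23 interferon and antigen presentation genes 6 were kept lower (10.4% over all genes) and 1, the peptide transporter TAP1, was gained lower (0.20, then -0.45). Of 13 control genes 1 had a called contrast, HPRT1, from -0.28 to 0.22, against 5.36% over all genes.

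Markers of the line and of other cell types were set beside these groups. Of 14 measured luminal prostate markers 12 were detected on all 8 arrays. Their summed level on the linear scale was 45016 to 46958 on the parental and 45105 to 45978 on the siFoxA1 titles of replicate 1. It was 37651 to 38027 and 37339 to 37903 at replicate 2. Single members differed more than the sums: at replicate 2, 3 of the 14 were called higher and 8 lower on siFoxA1 titles (15.7% and 19.4% over all genes), with a median title difference of 0.10 at replicate 1 and -0.34 at replicate 2. KLK2, a kallikrein of luminal cells, was gained lower (0.50, then -0.72), at 8.24 and 8.07 against 7.29 and 7.58 at replicate 2, and CDH1, E-cadherin, was reversed (0.26, then -0.30). Of 7 basal epithelial markers on the array 5, KRT5 and KRT14 among them, were detected on no array.

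Of 6 measured mesenchymal markers 2, ACTA2 and SNAI2, were called higher on siFoxA1 titles at each number (14.6% and 15.7% over all genes). S100A4 was called lower at replicate 2 (-0.70, adjusted p = 0.0456 in limma), COL1A1, VIM and FN1 at neither number, and the median title difference was 0.14 and 0.04. The summed level of the 6 measured markers was 729 to 781 and 1161 to 1186 on parental titles of replicates 1 and 2. On siFoxA1 titles it was 4748 to 5041 and 3739 to 4009. ACTA2, smooth muscle actin, gave most of that: 6.17 and 6.23 against 11.71 and 11.79, then 7.19 and 7.23 against 10.91 and 11.16, a reduced difference. SNAI2, a repressor of epithelial genes, was not detected on the parental-titled arrays of replicate 1, at least 17.2-fold higher on siFoxA1 titles there, and 3.04 higher on the log2 scale at replicate 2. Its other probe had a contrast of the opposite sign. ZEB1, ZEB2, TWIST1, COL1A2 and LUM, 5 of the 14 on the array, were detected on no array. The 2 measured blood and endothelial markers, CD68 and HBB, summed to 151 to 193 and 578 to 640 on parental titles. Their sums were 660 to 720 and 1899 to 1984 on siFoxA1 titles. The 8 other markers on the array were detected on no array. The part of other cell types in the contrast was not tested.

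The DHT set, 8 arrays the rule did not use, allowed a corresponding contrast. There cells had been given vehicle or 100 nM dihydrotestosterone (DHT), and its arrays were pooled by number and hormone title. Replicate 2 minus 1 on DHT titles, minus the same on Vehicle titles, was called for 507 of 9020 genes (5.62%) in limma. In that contrast the replicate number took the place of the cell title, and the hormone title that of the replicate number. This pooling too was chosen with values known, and the level of FOXA1 by hormone title is not given here. FKBP5 was higher at replicate 2 there, by 4.08 on Vehicle and 5.09 on DHT titles, while FOXA1 differed by 0.10 and 0.05. Of the 521 genes called in the DEX set and tested in both, 132 were called in both, 121 of them with the same sign.

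The same sign was found for 55.7% of all 8787 shared genes, for 56.7% of kept, 81.8% of enlarged, 77.8% of reversed, 71.6% of gained, 71.3% of lost and 61.8% of reduced genes. PGF (3.26 ± 0.47, adjusted p = 4.06e-05 in limma over all genes of that set), PXYLP1 (2.41 ± 0.23, adjusted p = 1.26e-07) and GRPR (2.58 ± 0.48, adjusted p = 0.00108) were higher in both. LRIG1 (-1.31 ± 0.19, adjusted p = 6.1e-05 in limma), RGS2 (-1.28 ± 0.34, adjusted p = 0.0213) and ABCC4 (-1.60 ± 0.20, adjusted p = 7.56e-06) were lower in both. A called contrast of the opposite sign in the DHT set was found for 6 reduced, 2 lost, 2 reversed, 1 gained and 0 enlarged genes. The reduced genes CDKN1C (1.85 ± 0.35), ACTA2 (3.05 ± 0.27) and SNAI2 (2.66 ± 0.35) were among them. FOXA1 had no called contrast there (-0.04 ± 0.16), and FKBP5, kept in the DEX set, had one of 1.01 ± 0.23 (adjusted p = 0.00619 in limma).

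**Figure D5:**
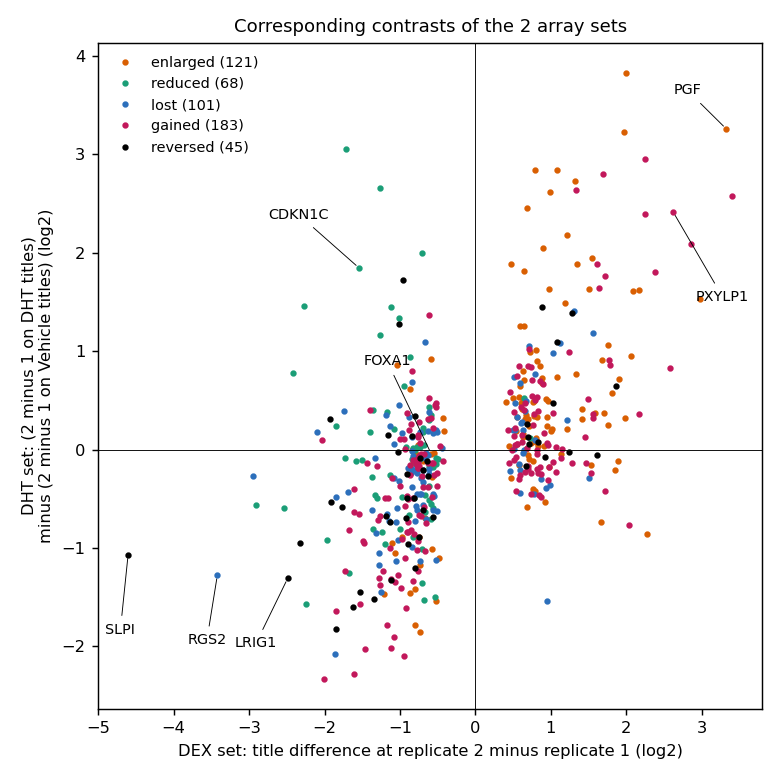
Contrast of the DEX set (x axis, log2) and the corresponding contrast of the DHT set (y axis, log2) for the classed genes tested in both, coloured by class. PGF and PXYLP1 lie at the upper right, SLPI, RGS2 and LRIG1 at the lower left, and CDKN1C, of the reduced class, at the upper left.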

How the data were processed

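Total RNA was labelled with biotin and measured on Illumina HumanHT-12 bead arrays. The authors' scanner table gives, per the file headers, a mean intensity per probe and a detection p-value, and from the values it is neither background-subtracted nor normalized; the submitters' processing notes name BeadStudio. A second deposited table of intensity, judged from its values, had background removed (29.2% below 0) and was quantile normalized. Matching ranks over the 8 arrays linked all 47231 rows of both tables and so named the probes.

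Intensities received normexp correction with an offset of 16, quantile normalization over the 8 arrays and log2 (limma 3.58.1, R 4.3.3). A probe stayed in when at least 2 arrays detected it (p under 0.01), which left 18391, of which 3860 had no single symbol. The brightest probe with 1 symbol stood for its gene, and Y-linked genes were omitted. A model of 4 group means was fitted with limma (intensity trend, 4 residual degrees of freedom), two-sided, with Benjamini-Hochberg adjustment over all genes and calls at an adjusted p under 0.05. The labels put all 8 arrays on 1 chip, so the chip does not differ between groups; position on it was not tested. Where both arrays of a group did not detect a probe, a fold is a bound against the lowest detected level of those arrays.

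The groups, members, lists and the rule for named genes were chosen with earlier results of these data known. Named were FOXA1, FKBP5, the 4 largest contrasts per class and direction (for kept genes the largest of the smaller title difference), and up to 3 list members. Tested on simulated data for this contrast over 10986 genes, 41 of 100 changes of 1 and 77 of 100 changes of 2 (log2) were called, with 9 unchanged genes. Replicate 2 minus 1 correlated between the 4 labelled groups at 0.543 to 0.738 in all 6 pairs, so these groups shared part of that change. What the numbers stand for was not tested. Some genes are not analysed here.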

Additional observations from a re-analysis of the deposited data

Results flagged for a closer look

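The title difference of these genes differed between the replicate numbers by the contrast itself, on arrays from which the grouping had been chosen. FOXA1 had a contrast of -0.58 ± 0.12. Opposite signs at the 2 numbers gave contrasts of 1.87 ± 0.15 for MIPEP, 1.75 ± 0.31 for ACTRT3, 1.61 ± 0.19 for CCNF and 1.28 ± 0.16 for ID2. The contrast was -4.61 ± 0.21 for SLPI (-3.81 with the 2 arrays that did not detect it at their detection limit), -2.49 ± 0.16 for LRIG1, -2.32 ± 0.21 for RGCC and -1.92 ± 0.17 for ENC1. In the DHT set the corresponding contrast was called with the same sign for ID2 (1.39 ± 0.29, adjusted p = 0.00289 in limma), LRIG1 and SLPI (-1.07 ± 0.31, adjusted p = 0.0434). It was not called for MIPEP (0.65 ± 0.20), RGCC (-0.95 ± 0.40), ENC1 (0.31 ± 0.23), CCNF (-0.05 ± 0.28) or FOXA1. ACTRT3 was not tested there.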

How the results depend on the processing

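Over other settings the 589 called contrasts became 296 at an adjusted p under 0.01, 244 with a log2 difference of at least 1 and 249 without the variance trend. In the same order, lost genes became 58, 49 and 37 (of 125), gained 110, 88 and 86 (of 204), enlarged 69, 36 and 64 (of 135), reduced 41, 24 and 33 (of 75) and reversed 18, 1 and 31 (of 47), with 29 reversed where no detection filter was used. A log2 difference of at least 1 left 750 title differences at replicate 1, 1020 at replicate 2 and 406 kept genes. An offset of 50, no background correction, median scaling, the authors' values, detection on all 8 arrays and the hormone title as a term moved none of the class counts by over 1.5 times. The contrast of the DHT set went from 507 to 333 calls with median scaling and 300 without the trend. Title differences over both numbers, with the replicate block, were 4384 (39.9%), and 2319 with no replicate block.

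Leaving out 1 array at a time gave 338 to 704 called contrasts, 2302 to 3834 title differences at replicate 1, 2914 to 3688 at replicate 2, 1572 to 2030 kept, 59 to 180 lost, 113 to 236 gained, 64 to 152 enlarged, 43 to 72 reduced and 24 to 58 reversed genes. The lowest counts came without the DEX siFoxA1 array of replicate 1 (contrasts, lost, enlarged and, with the Vehicle siFoxA1 array of replicate 2, reversed), the DEX parental array of replicate 1 (replicate 1 and kept), the Vehicle siFoxA1 array of replicate 2 (replicate 2 and gained) or that of replicate 1 (reduced). A group then holds 1 array, assumed to vary like the others. Counts past 1.5 times also came without Vehicle parental replicate 1 (74 lost, 81 enlarged, 30 reversed), DEX parental replicate 1 (61 lost, 134 gained, 78 enlarged, 28 reversed), Vehicle siFoxA1 replicate 1 (68 lost, 68 enlarged, 28 reversed), Vehicle siFoxA1 replicate 2 (83 lost, 83 enlarged, 47 reduced), DEX siFoxA1 replicate 1 (49 reduced) and DEX siFoxA1 replicate 2 (82 lost, 48 reduced). Recomputed were FOXA1, FKBP5 and the genes named by class and direction. Of their values 908 stayed on their side of the threshold or within their spread, 47 lost the call, 16 moved and 0 changed sign. Members named from the lists alone were not recomputed, and other probes entered only for genes outside the kept class. Another probe had a contrast of the opposite sign for SDCBP2, SNAI2, UGT2B17, CD68, NR3C2 and S100A4. Differences under the detection limit, as at replicate 2 for KRT73, could not be measured.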

Other observations

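Genes near the detection limit made up part of the classes. On both arrays of at least 1 of the 4 groups, 1447 of the 10986 genes were not detected, among them 29 of the 204 gained, 22 of the 135 enlarged, 13 of the 75 reduced, 13 of the 125 lost and 1 of the 47 reversed genes. The keratins KRT72 and KRT73, the arginase ARG1 and the cystatin CST1 were not detected on the 4 parental-titled arrays and highest on the siFoxA1-titled arrays of replicate 1. SLC10A1, AZGP1 and F5 had the same pattern. KRT72, KRT73, ARG1, AZGP1 and F5 were detected on those 2 siFoxA1-titled arrays alone and passed the detection filter through them. The likeness thus follows from how the genes were chosen. With arrays below detection at their detection limit, the contrasts were -5.34 for CST1, -3.74 for KRT73, -3.09 for KRT72 and -2.68 for ARG1, and none of these 4 genes was tested in the DHT set.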
